A study of Mus musculus with 2 samples.

Results

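The genes described here are 32 genes of glycolysis and of the cellular response to low oxygen, chosen by symbol from a fixed list, out of 32286 genes in the deposited matrices. They cover glucose uptake (Slc2a1, Slc2a3), hexokinases (Hk1, Hk2, Hk3), upper glycolysis (Gpi1, Pfkl, Pfkm, Pfkp, Aldoa, Aldoc, Tpi1), lower glycolysis (Gapdh, Pgk1, Pgam1, Eno1, Pkm) and lactate handling (Ldha, Ldhb, Slc16a1, Slc16a3). The remaining genes control flux (Pfkfb3, Pfkfb4, Pdk1), sense oxygen (Hif1a, Egln1, Egln3) or are known targets of hypoxia-inducible factor, HIF (Bnip3, Ndrg1, Ankrd37, P4ha1, Higd1a). All 32 symbols were found, and the rule uses symbols only. The study profiled single cells of the lungs of BALB/c mice carrying 4T1 tumours, a mammary carcinoma line of that strain that spreads to the lung. The 4T1 cells were placed in the mammary fat pad and the lungs were taken on day 14. One group received IgG, a control antibody, and the other an antibody named S100A4-11. The question named in the series title is whether inhibiting S100A4, a small calcium-binding protein, changes how the lung is prepared for metastasis. Both groups carry the tumour, and neither holds tumour-free mice. Each group is 1 library, and the number of mice behind a library is not stated in the labels, so a difference between libraries has no replicate check and was not tested.

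Glycolysis splits glucose into pyruvate in the cytosol, and cells either send pyruvate to the mitochondrion or reduce it to lactate and export it. Several steps are served by paralogous genes whose enzymes differ in affinity and regulation, so that the isoform a cell type uses is part of its metabolic identity. Under low oxygen the prolyl hydroxylases encoded by Egln1 and Egln3 slow down, the protein HIF-1α made from Hif1a accumulates, and it raises the transcription of glycolytic genes and of genes such as Bnip3, Ndrg1 and Pdk1. Neutrophils are known for living largely on glycolysis, and HIF-1α is known to support their function and survival.

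Quality filters left 13658 IgG and 11750 S100A4-11 cells, with medians of 4028 and 3661 unique molecular identifiers (UMIs, 1 per captured transcript molecule) per cell. The 2 libraries shared 247 of these cell barcodes. The clusters, made without the 32 genes, gave 18 classes named from marker genes, and lung types such as type 2 alveolar, alveolar macrophage and endothelial cells were among them. At the clustering resolution used (Leiden, 1) no cluster was named dendritic or 4T1 carcinoma-like. At resolution 2 a dendritic-like cluster of 131 and 139 cells appeared, and of these 126 and 132 belonged to the interstitial macrophage-like class used here. That class numbered 279 and 235 cells, so the levels and shares given for it below cover both kinds of cell. No carcinoma-like cluster was named in any alternative run, although the extraction protocol speaks of tumour tissue where the sample labels say lung. The 14 classes with at least 100 cells in each library, holding 112 to 3626 cells per library, were compared. Levels are UMIs per 1000000 UMIs of a class (CPM), given for the IgG library first and the S100A4-11 library second. Ranges in brackets are exact 95% intervals that cover counting error only. Since the 5′ libraries count molecules and not fragments, levels of different genes can be set side by side without a length correction.

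The promoters of these genes are shown because HIF binds a short core, ACGTG or GCGTG, in the genes it activates. RefSeq promoters (GRCm38.p6, 250 bases before to 50 after the start of transcription) were matched by symbol for 30 of the 32 genes, 43 promoters in all. At least 1 core, on either strand, was present in 36 of the 43, which is 83.7%, and in 43.8% of all 32851 promoters of that length. ACGTG alone was present in 58.1% of the members' promoters and in 19.6% of all. Cores are made of G and C in the main, and the median GC content was 63.3% in the members' promoters and 52.7% in all. Stretches of 50 bases from 7 promoters are printed 5′ to 3′ on the gene's own strand, with the cores in capitals. Each was taken from the gene's promoter with most cores, where most of them fell before the start. Every stretch therefore holds at least 1 core by choice. CACGT and CACGC are the cores read on the opposite strand, and CACGTG holds a core on each strand. Slc2a1 (chr4:119108679-119108728, plus strand, the last 18 bases in the first exon) and Slc16a3 (chr11:120949017-120949066, plus strand, 14 bases in an exon) are the main glucose importer and the main lactate exporter of the neutrophil-like cells.
Slc2a1: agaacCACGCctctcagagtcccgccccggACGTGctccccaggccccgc
Slc16a3: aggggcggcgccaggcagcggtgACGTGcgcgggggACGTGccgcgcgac
Ldha (chr7:46845751-46845800, plus strand) and Ldhb (chr6:142508039-142508088, minus strand) are the pair of lactate dehydrogenase genes. Hk2 (chr6:82774462-82774511, minus strand) and Hk3 (chr13:55021497-55021546, minus strand) are the main hexokinase genes of alveolar macrophage-like and of neutrophil-like cells. Bnip3 (chr7:138909579-138909628, minus strand) is a HIF target with cores at 3 places in the stretch.
Ldha: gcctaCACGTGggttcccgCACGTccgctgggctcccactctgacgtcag
Ldhb: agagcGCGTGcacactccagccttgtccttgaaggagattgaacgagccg
Hk2: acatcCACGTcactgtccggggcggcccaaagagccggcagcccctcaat
Hk3: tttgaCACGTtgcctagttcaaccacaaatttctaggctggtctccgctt
Bnip3: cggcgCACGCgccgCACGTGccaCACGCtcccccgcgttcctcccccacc
A core is a match of letters and not a measured binding site. Over the whole promoters, 1 Ldha promoter held 7 core matches, the other Ldha promoter 2 and the Ldhb promoter 1.

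Granulocytes held the highest levels of 13 of these genes. Of the 32 genes, 9 had their highest level of all 14 classes in the immature granulocyte-like cells in both libraries, and 4 had it in the neutrophil-like cells in both. These are 28.1% and 12.50% of the members. Of the 13113 genes with at least 100 UMIs over the 14 classes in each library, 1.94% and 4.00% did so. In all, 26 of the 32 had the same highest class in both libraries. The immature granulocyte-like class was led by Camp, Ltf and Ngp, genes of secondary granules, and numbered 186 and 142 cells. Its cells held a median of 11108 and 10204 UMIs, against 3914 and 3671 in the neutrophil-like class, and the part of this depth gap in the levels was not tested.

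**Figure D1:**
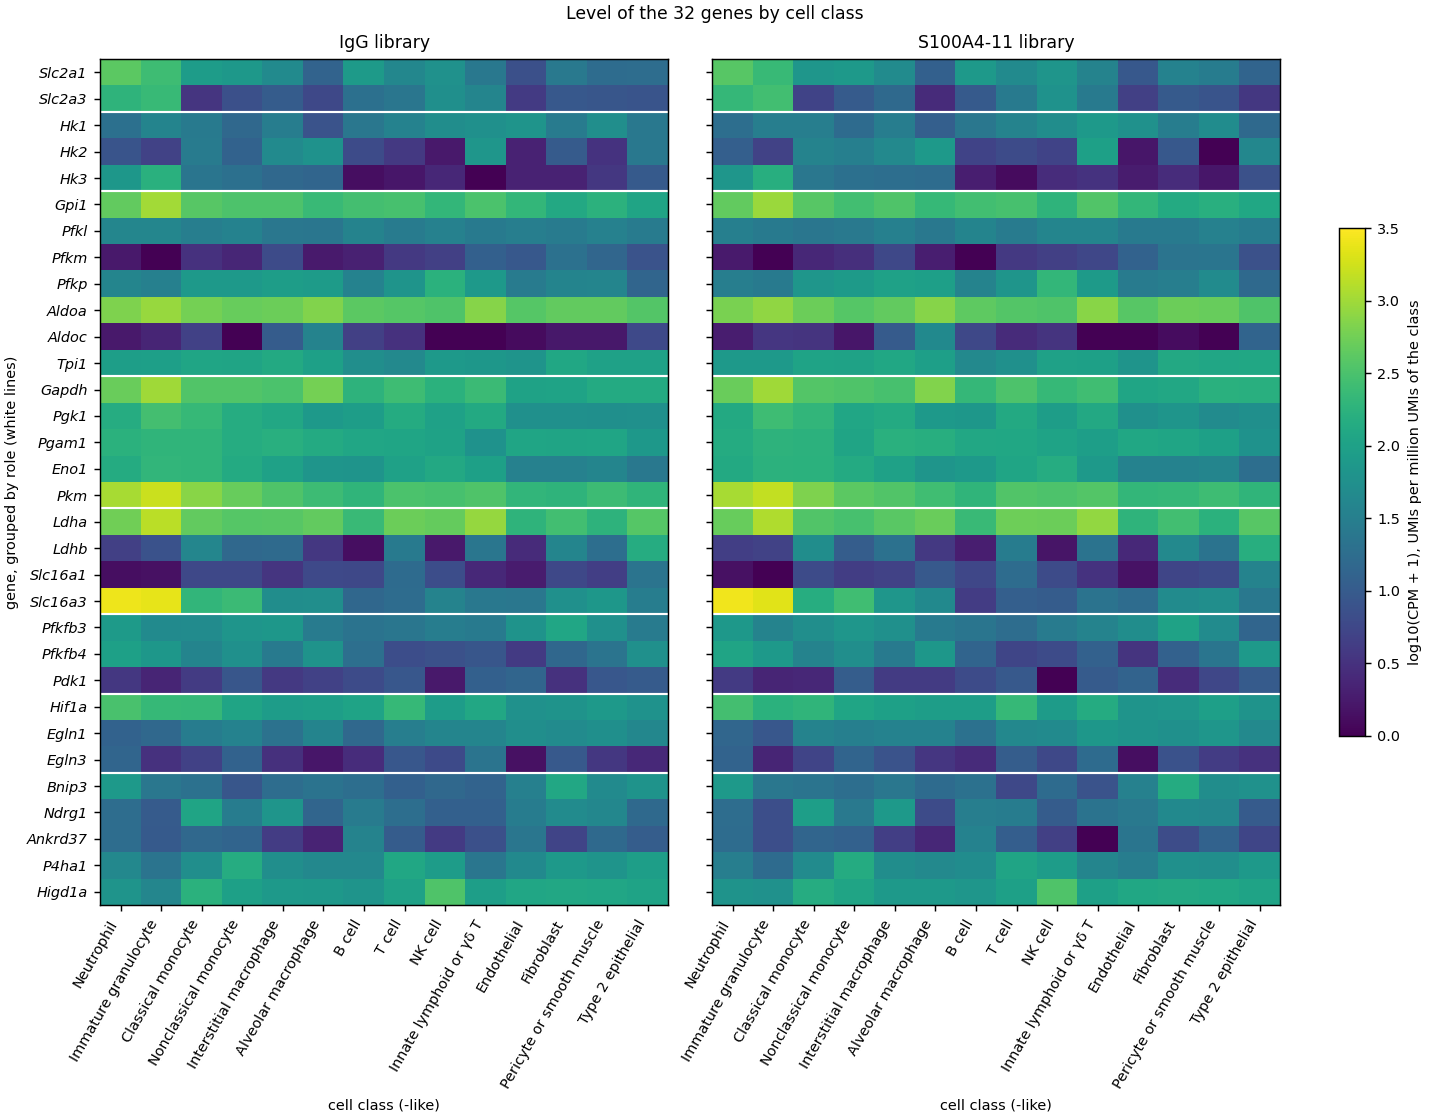
Level of each of the 32 genes (rows, grouped by role) in each cell class (columns) for the IgG and S100A4-11 libraries, as log10(CPM + 1) on a colour scale. Pkm, Ldha, Gapdh and Gpi1 are brightest in the immature granulocyte column, and Slc16a3 in the neutrophil and immature granulocyte columns of both libraries.

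Glucose enters through 2 transporters in the list. Slc2a1, the basal glucose transporter GLUT1, stood at 415 (403 to 427) and 384 (371 to 397) CPM in neutrophil-like cells. In the immature granulocyte-like cells it was 255 and 229.9, in classical monocyte-like cells 83.8 and 67.1 and in B-like cells 79.1 and 78.1. Endothelial-like cells, the largest class, had only 6.24 and 8.08 CPM. Slc2a3, the high-affinity transporter GLUT3, was narrower: 228 and 272 CPM in immature granulocyte-like, 186 and 214 in neutrophil-like and 53.9 and 59.5 in NK-like cells, and 1.67 to 38.1 in the other 11 classes. Slc2a1 supplied 97.1% and 94.2% of the Slc2a1 and Slc2a3 molecules in classical monocyte-like cells but 69.1% and 64.3% in neutrophil-like and 52.8% and 45.8% in immature granulocyte-like cells. NK-like cells used both about equally, with 51.9% and 52.6% Slc2a1.

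The 3 hexokinase genes, whose enzymes trap glucose as glucose 6-phosphate, had different shares in different cell classes. Hk1, the housekeeping form, gave 96.5% (95.3 to 97.4) and 97.4% (96.1 to 98.4) of hexokinase molecules in endothelial-like cells, 90.8% and 86.8% in T-like cells and 73.2% and 74.8% in fibroblast-like cells. Hk2, the inducible form, gave 75.3% (71.3 to 79.0) and 73.9% (69.5 to 78.0) in alveolar macrophage-like cells and 51.0% and 48.8% in interstitial macrophage-like cells. Hk3, a form of granulocytes and other myeloid cells, gave 72.8% and 71.2% in neutrophil-like and 80% and 82.3% in immature granulocyte-like cells. Classical monocyte-like cells held all 3, with Hk1 at 35.0% and 34.1%, Hk2 at 36.4% and 39.6% and Hk3 at 28.7% and 26.3%. In levels, Hk3 was 165 and 157 CPM in immature granulocyte-like, 69.5 and 68.7 in neutrophil-like and 21.8 and 23.7 in classical monocyte-like cells. Hk2 was highest in innate lymphoid or γδ T-like cells at 68.6 and 96.7 CPM, from only 45 and 43 UMIs, followed by alveolar macrophage-like cells at 59.99 and 76.3 and interstitial macrophage-like cells at 45.7 and 44.1. Hk1 was highest in the IgG library in endothelial-like cells and in the S100A4-11 library in innate lymphoid-like cells, with 63.5 and 57.3 CPM in endothelial-like, 56.4 and 76.5 in innate lymphoid-like and 53.4 and 49.9 in pericyte or smooth muscle-like cells.

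**Figure D2:**
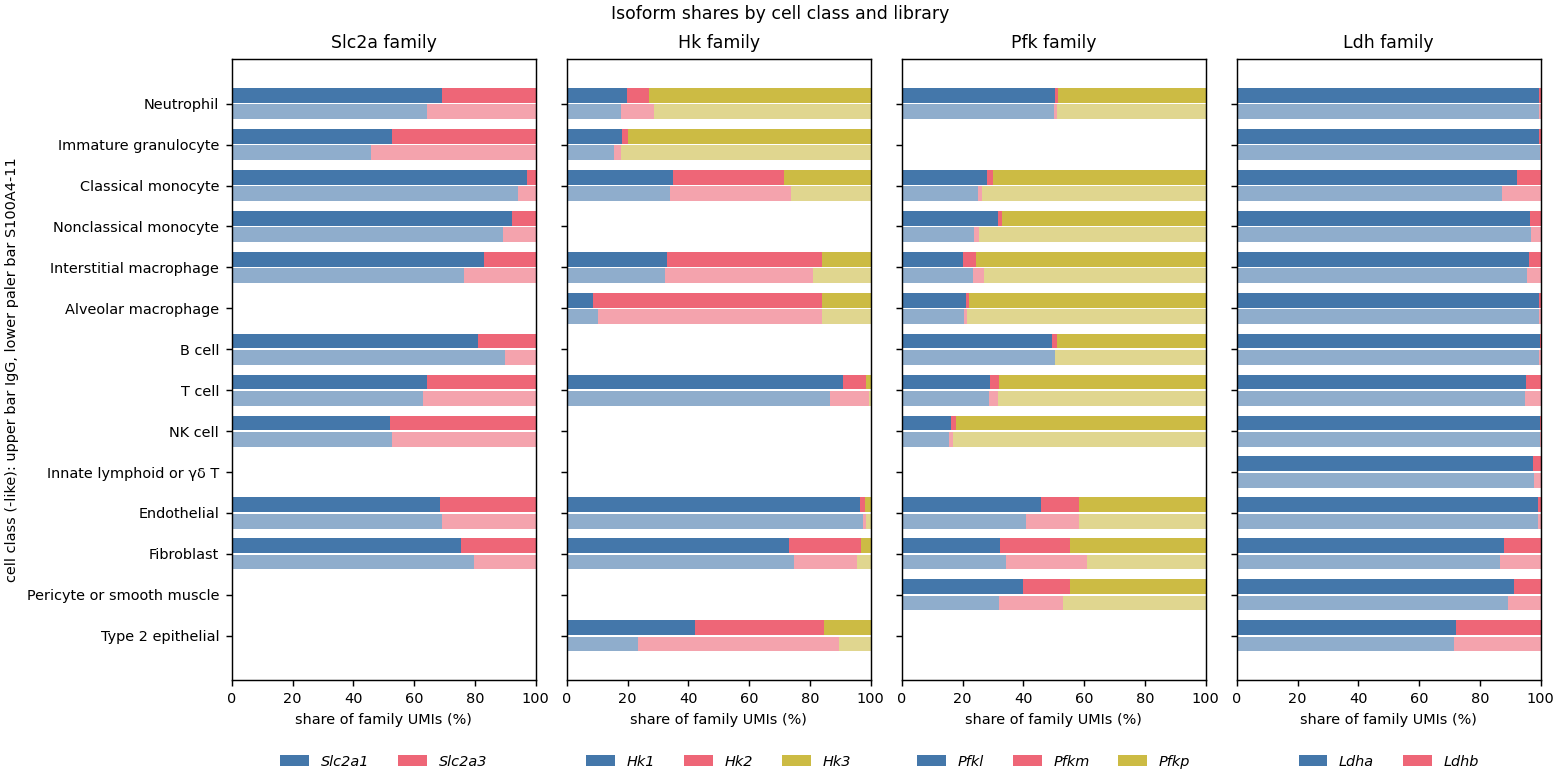
Share of each isoform (%) among the UMIs of its family, for the glucose transporters, hexokinases, phosphofructokinases and lactate dehydrogenases, by cell class; the upper bar of a pair is the IgG library and the paler lower bar the S100A4-11 library. Bars are drawn only where the family has at least 100 UMIs in each library, and Hk1 fills the endothelial bars, Hk2 most of the alveolar macrophage bars and Hk3 most of the neutrophil bars.

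Upper glycolysis runs from glucose 6-phosphate to the triose phosphates. Gpi1, which turns glucose 6-phosphate into fructose 6-phosphate, reached 1020.2 and 950.5 CPM in immature granulocyte-like cells, 452 and 449 in neutrophil-like and 389 and 389 in classical monocyte-like cells. Phosphofructokinase, the committing step, was made from all 3 of its genes. Pfkp, the platelet form, was led among the compared classes by NK-like cells at 169 (148 to 192) and 205 (184 to 228) CPM, followed by interstitial macrophage-like cells at 88.3 and 99.4 and alveolar macrophage-like cells at 83.3 and 93.3. It made up 82.2% and 83.1% of phosphofructokinase molecules in NK-like cells, 78.0% and 78.7% in alveolar macrophage-like and 75.5% and 73.0% in interstitial macrophage-like cells. Outside the compared classes, the 48 and 53 basophil or mast-like cells held 436 and 391 CPM of Pfkp.

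Pfkl, the liver form, was spread over the classes, with 39.6 and 26.8 CPM in immature granulocyte-like, 39.5 and 31.6 in neutrophil-like and 35.4 and 36.4 in B-like cells, and 22.7 to 38.3 in the other 11 classes. It shared the family about evenly with Pfkp in neutrophil-like cells (50.5% and 50% Pfkl) and B-like cells (49.5% and 50.3%), and in endothelial-like cells it gave 45.8% and 40.7%. Pfkm, the muscle form, had its largest shares in mesenchymal cells, at 23.0% and 26.8% in fibroblast-like and 15.5% and 21.2% in pericyte or smooth muscle-like cells, with 12.5% and 17.4% in endothelial-like cells. Its levels there were 19.3 and 21.2, 13.1 and 22.0 and 8.19 and 11.5 CPM.

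Aldolase cuts fructose bisphosphate, and Aldoa was its gene in every compared class. Aldoa stood at 916 and 821 CPM in immature granulocyte-like, 734 and 749 in innate lymphoid-like and 694 and 732 in alveolar macrophage-like cells, and did not fall below 339 in any compared class of either library. Aldoc, the brain form, had enough UMIs to be compared only in alveolar macrophage-like cells, at 36.2 and 44.1 CPM. There it was 4.96% and 5.69% of aldolase molecules. Tpi1, triose phosphate isomerase, was spread likewise, with 133 and 119.9 CPM in interstitial macrophage-like, 122 and 127 in fibroblast-like and 113 and 107 in classical monocyte-like cells and 43.6 to 122 in the other classes.

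The 5 genes of lower glycolysis, the steps that yield ATP and pyruvate, were each highest in immature granulocyte-like or classical monocyte-like cells in both libraries. Pkm, pyruvate kinase, reached 1665 (1612 to 1719) and 1485 (1424 to 1547) CPM in immature granulocyte-like cells, 1097 and 1083 in neutrophil-like and 764 and 659 in classical monocyte-like cells. Gapdh, glyceraldehyde 3-phosphate dehydrogenase, was 1008 and 1013 in immature granulocyte-like, 586 and 683 in alveolar macrophage-like and 494 and 493 in neutrophil-like cells. In endothelial-like cells it was 103 and 113, so this common reference gene was not at 1 level across the classes. Pgk1, phosphoglycerate kinase, was 287 and 261 CPM in immature granulocyte-like, 219.9 and 201 in classical monocyte-like and 148 and 131 in neutrophil-like cells. Pgam1, phosphoglycerate mutase, was 195 and 179, 194 and 182 and 169 and 141 CPM in classical monocyte-like, immature granulocyte-like and neutrophil-like cells. Eno1, enolase, was 198 and 176, 194 and 170.4 and 140.4 and 134 CPM in immature granulocyte-like, classical monocyte-like and neutrophil-like cells. Several of these genes have near-identical copies in the GENCODE annotation. There 128 other genes share at least 100 31-base words with Gapdh, 124 of them pseudogenes. The number is 7 for Ldha, 6 for Pkm, 5 for Eno1, 4 for Pgk1 and 3 for Bnip3. Whether these copies are among the genes counted in the matrices was not checked, so their effect on the absolute levels is not known.

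The lactate genes differed widely between classes. Ldha, which makes lactate from pyruvate, was 1354 (1306 to 1403) and 1191 (1137 to 1247) CPM in immature granulocyte-like cells, 880.1 and 852 in innate lymphoid-like and 557 and 488 in neutrophil-like cells. Ldhb, whose enzyme favours the reverse direction, belonged to epithelium: 148 (137 to 158) and 157 (139.7 to 176) CPM in type 2-like cells, then 39.3 and 51.7 in classical monocyte-like and 38.2 and 42.8 in fibroblast-like cells. Ldha was 72.0% and 71.5% of the pair in type 2-like cells and at least 86.5% in the other 13 compared classes. Some type 2-like cells carried over 1% of their UMIs in Scgb1a1, the club cell secretory gene. Without them, a subset chosen after the data were seen, Ldhb was 118 and 155 CPM and Ldha 388 and 392. In the few airway epithelial-like cells, 32 and 18, Ldhb was the larger part at 64.0% (59.3 to 68.6) and 54.5% (46.0 to 62.9).

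The lactate exporter Slc16a3 (MCT4) was concentrated in the granulocytes. It stood at 2615 (2585 to 2645) and 2629 (2595 to 2662) CPM in neutrophil-like cells and 2324 and 2177 in immature granulocyte-like cells, higher than any other member in either class. Nonclassical monocyte-like cells had 239 and 266, classical monocyte-like cells 199 and 148, and the other 10 classes 3.13 to 69.5. Because neutrophil RNA can float free among droplets, the neutrophil gene S100a9 was read beside it in each class, and the level of Slc16a3 that would come with that much S100a9 at the neutrophil ratio was computed. In B-like cells S100a9 was 498 and 169 CPM, which at that ratio carries 16.2 and 5.79 CPM of Slc16a3, and 14.0 and 3.13 were measured. In classical monocyte-like cells 28.4 and 15.4 CPM would be carried, and 199 and 148 were measured. Among the 12 classes other than the 2 granulocyte classes, the measured level was at or below the carried one in 3 classes of the IgG library and 4 of the S100A4-11 library, so there it is read as background. Slc16a1 (MCT1), which carries lactate and pyruvate in both directions, was low throughout, with 20.9 and 35.7 CPM in type 2-like and 15.7 and 16.3 in T-like cells.

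**Figure D3:**
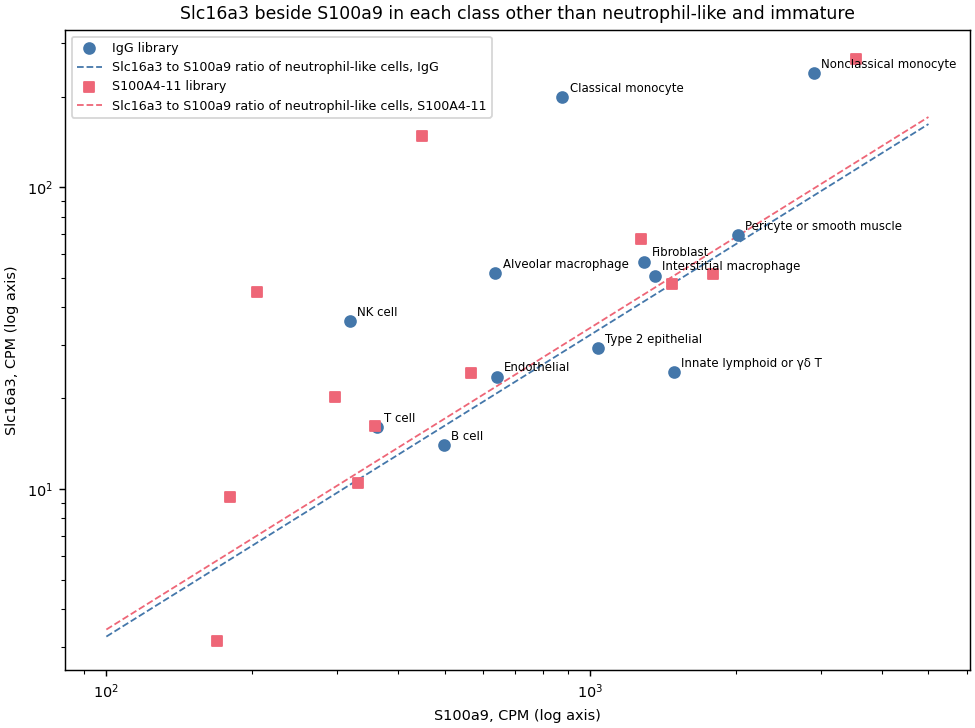
Slc16a3 against the neutrophil gene S100a9, both in CPM on log axes, in each of the 12 compared classes other than neutrophil-like and immature granulocyte-like (circles IgG, labelled; squares S100A4-11). The dashed lines are the ratio in neutrophil-like cells of each library; the pericyte, endothelial and fibroblast points lie close to a line, and the classical monocyte, nonclassical monocyte and alveolar macrophage points lie above it.

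The flux regulators differed by class as well. Pfkfb3 and Pfkfb4 make fructose 2,6-bisphosphate, the activator of phosphofructokinase, and they split by cell type. Pfkfb3 was 119 and 103 CPM in fibroblast-like, 79.9 and 71.4 in neutrophil-like and 69.1 and 56.1 in interstitial macrophage-like cells. It was 95.5% and 95.6% of the pair in endothelial-like and 89.7% and 90.1% in fibroblast-like cells. Pfkfb4 was 97.8 and 111 CPM in neutrophil-like, 70.4 and 77.7 in immature granulocyte-like and 61.4 and 70.9 in alveolar macrophage-like cells, and it was the larger part of the pair in alveolar macrophage-like cells (69.1% and 72.8%), immature granulocyte-like cells (60.4% and 68.8%) and type 2-like cells (66.9% and 85.3%). Pdk1, the kinase that closes pyruvate's entry to the mitochondrion, was low: its only comparable level was 12.8 and 12.2 CPM in endothelial-like cells.

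Of the oxygen-sensing genes, Hif1a was expressed in every compared class, with 315 (305 to 326) and 286 (275 to 297) CPM in neutrophil-like, 218 and 217 in T-like, 218 and 171 in immature granulocyte-like and 216 and 194 in classical monocyte-like cells. These are RNA levels, and HIF-1α protein was not measured. Its negative regulator Egln1 had another distribution, highest in pericyte or smooth muscle-like (54.8 and 68.0 CPM), endothelial-like (52.6 and 61.3) and fibroblast-like cells (47.6 and 55.9) and 11.7 and 13.2 in neutrophil-like cells. Neutrophil-like cells were the class in which the second hydroxylase gene, Egln3, had enough UMIs, at 13.01 and 11.9 CPM. There it was 52.7% and 47.3% of Egln1 and Egln3 molecules together. In compared classes with too few Egln3 UMIs its level reached 21.4 and 15.7 CPM.

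The 5 HIF target genes had their highest levels in different classes. Bnip3, a mitophagy receptor, was 124 and 141 CPM in fibroblast-like, 75.6 and 74.8 in neutrophil-like and 62.5 and 58.3 in type 2-like cells. Ndrg1, a stress-response gene, was 110.3 and 89.2 in classical monocyte-like, 66.3 and 74.1 in interstitial macrophage-like and 48.0 and 45.1 in fibroblast-like cells. Outside the compared classes it was higher, at 395 and 388 CPM in the 35 and 33 lymphatic endothelial-like cells. P4ha1, a subunit of the collagen prolyl hydroxylase, was 146 and 143 CPM in nonclassical monocyte-like, 121 and 110.3 in T-like and 90.3 and 75.1 in type 2-like cells, above the 76.7 and 56.7 of the collagen-making fibroblast-like cells. Higd1a, a mitochondrial inner membrane protein, was 345 (315 to 377) and 343 (316 to 372) CPM in NK-like cells, 169.6 and 146 in classical monocyte-like and 126 and 129 in fibroblast-like cells. Ankrd37, a small ankyrin-repeat gene, was 36.2 and 34.5 CPM in B-like, 22.5 and 21.9 in endothelial-like and 17.1 and 16.1 in neutrophil-like cells.

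Within the neutrophil-like class many members differed in level between its 3 clusters. Cluster 1 (948 and 915 cells) was led by Ptgs2, Ccrl2 and Il1rn, genes known from inflammatory activation. Cluster 2 (1035 and 814 cells) was led by G0s2 and Wfdc17, and cluster 10 (610 and 498 cells) by Prok2, Retnlg and Mmp8, genes of neutrophil granules and secretion. Of the 26 members with at least 100 UMIs in the class in each library, 12 were lowest in cluster 1 and highest in cluster 10 in both libraries (Aldoa, Eno1, Gapdh, Gpi1, Hif1a, Hk3, Ldha, Pfkl, Pgk1, Pkm, Slc16a3 and Tpi1). That is 46.2% of them, and 11.8% of the 4613 genes with as many UMIs had this order. For clusters 1, 2 and 10 in that order, Gapdh was 218, 443 and 737 CPM in the IgG library and 216, 465 and 762 in the S100A4-11 library. Ldha was 339, 478 and 789.7 and then 343, 426 and 682, and Pgk1 67.0, 132 and 220.1 and then 66.5, 113 and 207. The same order held for Gapdh, Pgk1, Eno1 and Pkm of lower glycolysis and for Ldha, but not in both libraries for Pgam1. Slc16a3 varied less than these 3, from 1998 to 3010.4 CPM in the IgG library. The order was reversed in both libraries for Bnip3, Ndrg1 and Pfkp, 11.5% of the 26, and for 42.3% of all genes with as many UMIs. Ndrg1 was 23.3, 18.2 and 10.2 and then 25.1, 14.4 and 12.4 CPM. The reverse order also held for Hk2, which had under 100 UMIs per library, at 10.6, 7.58 and 4.13 and then 14.8, 10.2 and 7.53 CPM. The median depth of a cell rose along the same order, from 2889 UMIs in cluster 1 to 3997 in cluster 2 and 6078 in cluster 10, and its part in these levels was not tested.

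**Figure D4:**
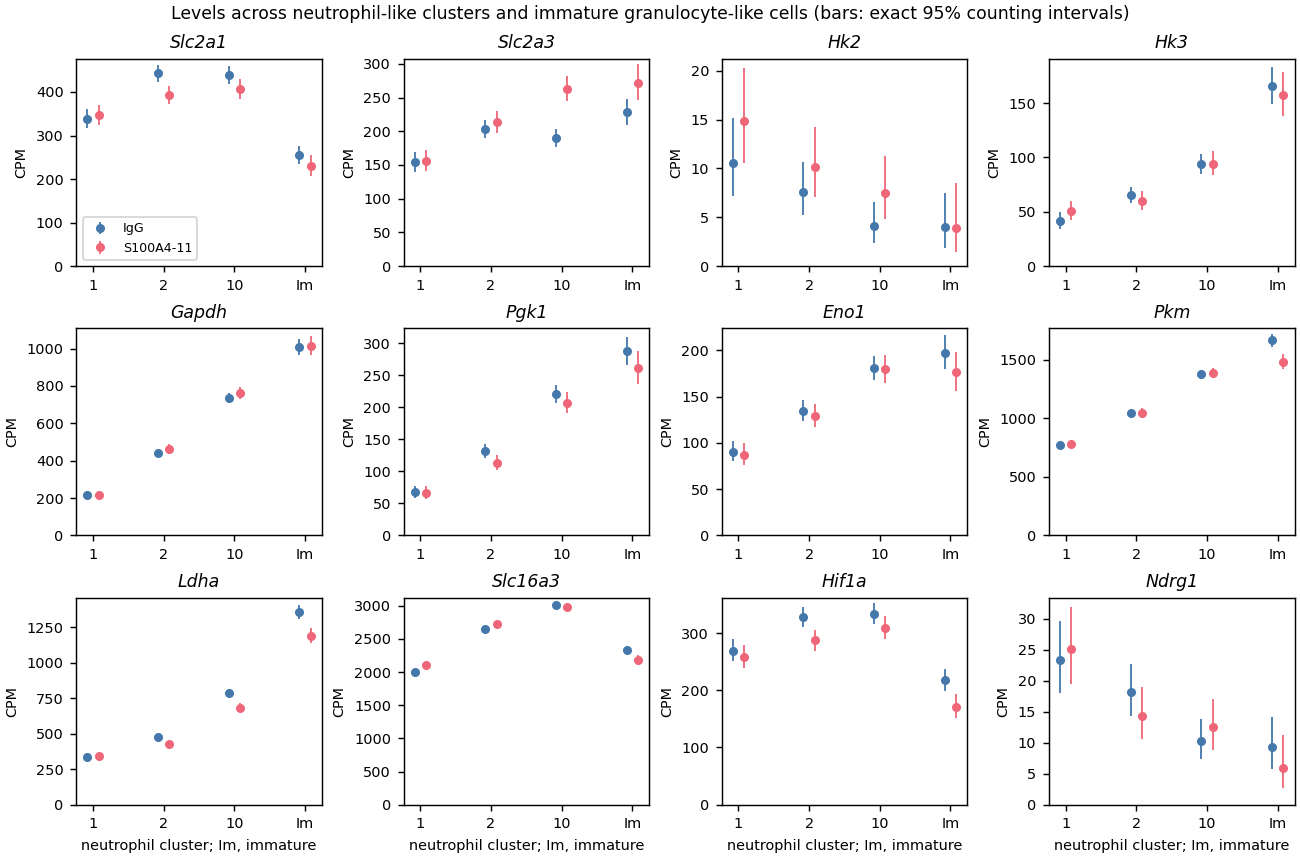
Level (CPM, linear axes from 0) of 12 members in neutrophil-like clusters 1, 2 and 10 and in immature granulocyte-like cells (Im), blue for the IgG and red for the S100A4-11 library, with exact 95% counting intervals. Gapdh, Pgk1, Pkm and Ldha climb from cluster 1 to cluster 10 and on to the immature cells in both libraries, whereas Hk2 and Ndrg1 go the other way among the 3 clusters.

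Few pairs of a member and a class differed by 1.5-fold between the libraries. The comparison asks whether the S100A4-11 antibody goes with a different level of these genes in any cell class. Of 448 gene and class pairs, 303 had at least 100 UMIs in both libraries together and at least 1 in each, and 8 members were measured in all 14 classes. Within the 303, 6 pairs (1.98%) were at least 1.5-fold higher and 3 pairs (0.990%) at least 1.5-fold lower in the S100A4-11 library. The background, the same count over 91693 pairs of all genes and classes, was 1.24% higher and 3.56% lower. Under TMM scaling (edgeR) the split was 5 higher and 4 lower. With so few pairs past the fold, the members are not set apart from the background by these counts. The median log2 ratio of S100A4-11 over IgG was 0.01 over the members' pairs and -0.02 over all pairs, and 145 of the 303 ratios were below 1. The counting interval of the ratio held 1 in 211 of the 303. No pair of upper or lower glycolysis, 68 each, was past 1.5-fold, with ratios of 0.676 to 1.41 and 0.705 to 1.27.

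**Figure D5:**
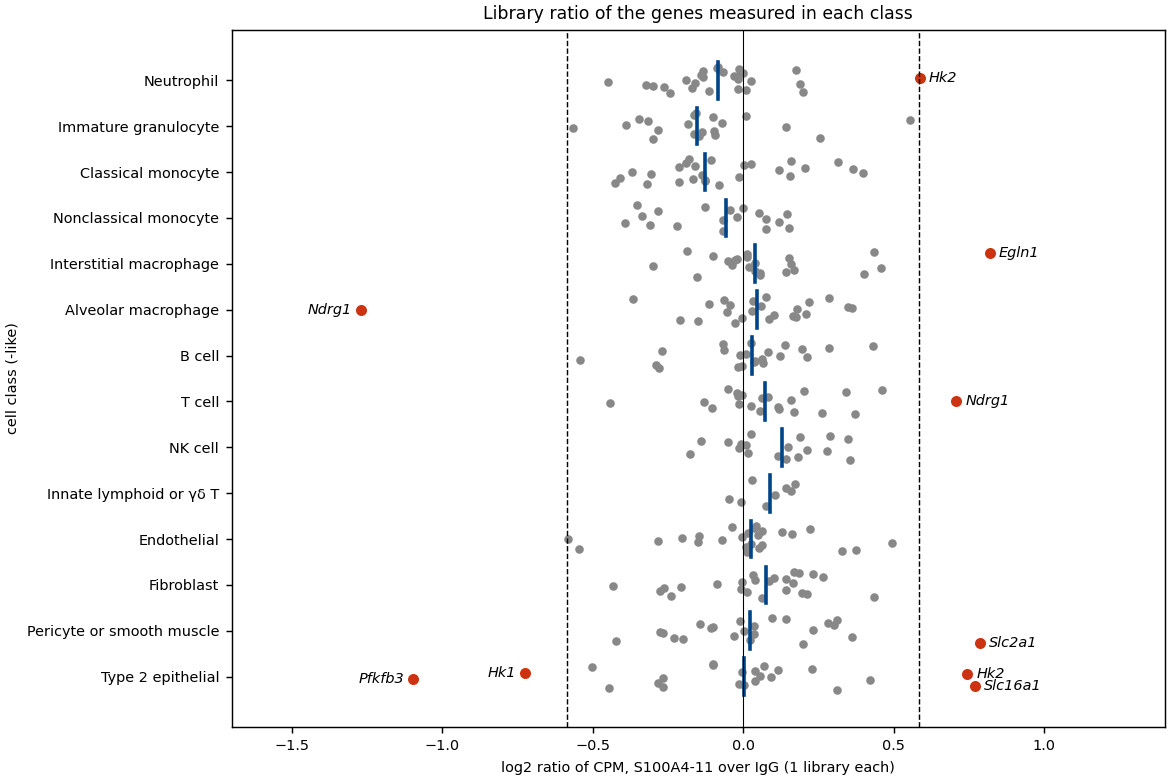
log2 ratio of CPM, S100A4-11 over IgG, 1 library each, for every member measured in a class (points, 303 in all), by cell class. Dashed lines mark 1.5-fold either way, blue bars are class medians, and of the 9 labelled pairs past 1.5-fold 4 lie in the type 2 epithelial row.

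In 3 of the granulocyte and monocyte classes a larger share of members than of all genes had ratios below 1, without passing 1.5-fold. The ratio was below 1 for 16 of 20 members in immature granulocyte-like cells, with a median log2 ratio of -0.15, against 50.3% and a median of 0.00 over all genes of the class. It was below 1 for 21 of 27 in neutrophil-like cells, with a median of -0.09, against 46.2% and 0.02 over all genes. In classical monocyte-like cells it was below 1 for 17 of 26, with a median of -0.13, against 54.6% and -0.02. Nonclassical monocyte-like cells, at 11 of 18 and -0.06, lay near their own background of 59.3% and -0.05. The dissociation-response genes went the other way in the immature granulocyte-like cells, with 1 of 11 below 1 and a median log2 ratio of 0.63, and their part in the members' ratios was not tested. The neutrophil-like class was made up differently in the 2 libraries. Clusters 1, 2 and 10 numbered 948, 1035 and 610 cells in the IgG library and 915, 814 and 498 in the S100A4-11 library. Levels rose from cluster 1 to cluster 10 in both libraries for 12 members and fell for 3. The part of this make-up in the class ratios was not tested. In NK-like cells the members' ratio was below 1 for 5 of 18, with a median of 0.13, and in T-like cells for 8 of 22, with a median of 0.07, against 50.4% and 49.9% of all genes in these classes. These counts were read after the data were seen and were not tested. Ldha is an example. Its level was 460.0 (442 to 478) and 356 (340.1 to 372) CPM in classical monocyte-like cells, a ratio of 0.773 (0.729 to 0.820), and 381 and 302 in nonclassical monocyte-like, 1354 and 1191 in immature granulocyte-like and 557 and 488 in neutrophil-like cells, ratios of 0.792, 0.880 and 0.877. In alveolar macrophage-like cells it was 449 and 508 CPM, a ratio of 1.13 (1.07 to 1.198), and in NK-like cells 466 and 517, a ratio of 1.11. Gapdh was above 1 in 11 of 14 classes, up to 1.27 (1.16 to 1.39) in T-like cells (259 and 328 CPM), whereas Pgk1, the next enzyme, was below 1 in 11 of 14. Within T-like cells, 2 subsets were chosen after the data were seen. The Gapdh ratio was 1.16 (1.03 to 1.32) in cells without a UMI of the proliferation genes. It was 1.18 (1.06 to 1.30) without the cluster led by Foxp3. None of these ratios reached 1.5-fold.

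Ndrg1 (chr15:66929318-66969640, minus strand, gene coordinates here and below on GRCm38) crossed the threshold in 2 classes, in opposite directions. In alveolar macrophage-like cells it was 12.7 (10.0 to 15.7) and 5.25 (3.29 to 7.95) CPM, from 81 and 22 UMIs, a ratio of 0.415 (0.246 to 0.671). The background in this class was 0.634% higher and 2.22% lower. In the same class 8 of 10 proliferation genes had ratios below 1, with a median log2 ratio of -0.81. In the alveolar macrophage-like cells without a proliferation UMI, a subset chosen after the data were seen, the Ndrg1 ratio was 0.209 (0.0533 to 0.598), from 28 and 4 UMIs. In T-like cells Ndrg1 was 17.3 (13.01 to 22.5) and 28.2 (23.0 to 34.2) CPM, from 55 and 102 UMIs, a ratio of 1.63 (1.17 to 2.31), where the background was 1.84% higher and 1.66% lower. T-like cells fell into a cluster led by Cd8b1 and a small one led by Foxp3, the regulatory T cell factor. Ndrg1 was 73.0 and 73.5 CPM in the Foxp3-led cluster of 43 and 77 cells and 12.3 and 19.7 in the Cd8b1-led cluster of 717 and 743 cells. Without the Foxp3-led cluster the ratio was 1.60 (1.04 to 2.49). The proliferation genes of the T-like class had a median log2 ratio of 0.78, with 2 of 9 below 1, and in its cells without a proliferation UMI the Ndrg1 ratio was 1.58 (0.951 to 2.68), an interval that holds 1. In classical monocyte-like cells, the compared class where Ndrg1 was highest, its ratio was 0.809 (0.718 to 0.911), within 1.5-fold.

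Egln1 (chr8:124908587-124949324, minus strand) was higher in interstitial macrophage-like cells, at 19.9 (15.1 to 25.8) and 35.1 (27.9 to 43.6) CPM, a ratio of 1.76 (1.24 to 2.52). The background there was 1.99% higher and 2.13% lower. The class numbered 279 and 235 cells, and at resolution 2 it came apart in parts that differed in size between the libraries. There the interstitial macrophage-like cluster numbered 152 and 103 cells, with a ratio of 1.85 (1.09 to 3.16), and the dendritic-like cluster described above gave 20.4 and 34.5 CPM, a ratio of 1.69 (1.06 to 2.73). The Egln1 ratio was above 1 in 10 of the 12 classes where it was measured, the 2 exceptions being alveolar macrophage-like (0.957) and nonclassical monocyte-like cells (0.916). Egln3 had a ratio of 0.911 (0.704 to 1.18) in neutrophil-like cells.

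Slc2a1 (chr4:119108711-119137983, plus strand) was higher in pericyte or smooth muscle-like cells, at 16.5 (12.95 to 20.8) and 28.5 (20.7 to 38.3) CPM, a ratio of 1.72 (1.16 to 2.54), with a background of 1.66% higher and 3.47% lower. The 73 and 44 UMIs were few, and 5 cells held 40.9% of those in the S100A4-11 library. The class pooled a cluster led by Adcy8, of 377 and 154 cells, with one led by Actc1, of 239 and 145 cells. Neutrophil RNA read from S100a9 would carry 10.4 of the 16.5 CPM of Slc2a1 measured in this class in the IgG library. In the S100A4-11 library it would carry 8.95 of the 28.5 CPM. The part of free RNA in the Slc2a1 ratio of this class was not tested. Without the 5 cells of most Slc2a1 UMIs in each library the ratio was 1.29. In neutrophil-like cells, its main site, the Slc2a1 ratio was 0.925 (0.885 to 0.967), and that of Slc2a3 1.15 (1.08 to 1.22). The Slc2a1 share of the pair there was 69.1% (67.9 to 70.2) and 64.3% (63.0 to 65.5), 2 intervals that do not overlap. The same direction was seen in immature granulocyte-like cells, at 52.8% (49.8 to 55.8) and 45.8% (42.3 to 49.4), and the opposite one in B-like cells, at 81.0% (75.8 to 85.4) and 90.0% (86.4 to 92.9).

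Hk2 (chr6:82725025-82774454, minus strand) lay just inside the threshold in neutrophil-like cells, at 7.08 (5.61 to 8.81) and 10.6 (8.61 to 12.99) CPM, a ratio of 1.502 (1.10 to 2.05), where the background was 0.990% higher and 3.59% lower. It was under 1.5-fold in 9 of 11 alternative settings, with ratios down to 1.35. Hk2 remained a minor hexokinase there, at 7.41% and 11.0% of the family. In the other 3 classes outside the type 2-like cells where it was measured, the ratio was 1.27 in alveolar macrophage-like, 1.29 in classical monocyte-like and 0.965 in interstitial macrophage-like cells.

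Type 2-like cells, the surfactant-making cells of the alveolus, held 4 of the 9 pairs. Hk2 was higher, at 24.5 (20.5 to 29.1) and 41.1 (32.3 to 51.4) CPM, a ratio of 1.67 (1.24 to 2.24). Hk1 (chr10:62268855-62379908, minus strand) was lower, at 24.1 (20.1 to 28.7) and 14.6 (9.61 to 21.2) CPM, a ratio of 0.604 (0.383 to 0.921). The Hk2 share of hexokinase molecules was 42.7% (37.1 to 48.5) and 66.1% (56.7 to 74.7). Slc16a1 (chr3:104638668-104658462, plus strand) was higher, at 20.9 (17.2 to 25.2) and 35.7 (27.6 to 45.4) CPM, a ratio of 1.71 (1.24 to 2.34). Slc16a3 was 29.3 and 24.3 CPM in this class, near the 33.7 and 19.4 that its S100a9 would carry, so its share of the pair is not read here. Pfkfb3 (chr2:11471433-11554077, minus strand) was lower, at 27.7 (23.4 to 32.6) and 12.97 (8.31 to 19.3) CPM, a ratio of 0.467 (0.290 to 0.723), and with Pfkfb4 at 56.1 and 75.1 CPM the Pfkfb4 share was 66.9% and 85.3%. In this class the background was 1.76% higher and 14.0% lower, the highest share of lower genes among the 14 classes.

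The type 2-like class had a different make-up in the 2 libraries. It numbered 402 and 181 cells, of which 23 and 2 carried more than 1% of their UMIs in Scgb1a1, the club cell secretory gene, whose level in the class was 33443 and 1266 CPM. With those cells left out, a subset chosen after the data were seen, the ratios were 0.565 for Hk1, 1.60 for Hk2, 1.60 for Slc16a1 and 0.429 for Pfkfb3. Ldhb was then 118 and 155 CPM, a ratio of 1.31 (1.14 to 1.52). When every cell was given the same weight in place of its UMIs, the ratios were 1.05 for Hk1, 1.17 for Hk2, 1.05 for Slc16a1 and 0.380 for Pfkfb3, so the first reversed and the next 2 were no longer past 1.5-fold. With every barcode kept, Hk2 was at 1.19 and Slc16a1 at 1.22.

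The pairs just inside the threshold were Hk2 in neutrophil-like cells at 1.502, Hk1 in type 2-like cells at 0.604 and Ndrg1 in T-like cells at 1.63. Just outside was P4ha1 in endothelial-like cells, at 44.6 and 29.8 CPM, a ratio of 0.667 (0.592 to 0.752). So were Pfkl in immature granulocyte-like cells (39.6 and 26.8 CPM, 0.676) and Higd1a in the same class (39.6 and 58.1 CPM, 1.47). P4ha1 rests on 823 and 413 UMIs, more than behind any of the 9 pairs past 1.5-fold. Its ratio was below 1 in 10 of 12 classes, including 0.740 (0.623 to 0.877) in fibroblast-like and 0.731 (0.628 to 0.851) in neutrophil-like cells. In endothelial-like cells the proliferation list had a median log2 ratio of -2.37, with 8 of 8 genes below 1, and the list of genes known to respond to tissue dissociation -0.53, with 13 of 13 below 1. The part of either in the P4ha1 ratio was not tested.

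Isoform shares were close between the libraries in most classes. Over 8 families and 85 family and class pairs with shares, 10 had an isoform whose counting intervals did not overlap between libraries. Of these, 4 were in type 2-like cells (hexokinase, aldolase, the lactate transporters and the Pfkfb pair, the third resting on Slc16a3 near the level carried by free neutrophil RNA) and 3 were the glucose transporter pair described above. The other 3 were the Ldhb share in classical monocyte-like cells, 7.86% (6.89 to 8.92) and 12.7% (11.4 to 14.1), the Pfkm share in endothelial-like cells, 12.5% (10.7 to 14.5) and 17.4% (15.03 to 20.04), and the Pfkfb4 share in neutrophil-like cells, 55.0% (52.8 to 57.2) and 60.9% (58.5 to 63.3). In classical monocyte-like cells Ldhb itself was 39.3 and 51.7 CPM and Ldha 460.0 and 356, ratios of 1.32 and 0.773 that are both within 1.5-fold.

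Among the other genes of these pathways, those of glycolysis were almost all within 1.5-fold, and more of those of the hypoxia response were past it. Among 39 further genes of glycolysis and pyruvate use, 183 gene and class pairs were measured and only Slc16a6, a monocarboxylate carrier family member, passed 1.5-fold, lower in T-like cells at 26.1 and 15.8 CPM. Among 12 genes of gluconeogenesis and the pentose phosphate pathway, 0 of 92 pairs passed. Among 47 further genes of the HIF pathway and hypoxia response, 367 pairs were measured, of which 9 (2.45%) were higher and 22 (5.99%) lower, against the 1.24% and 3.56% of all genes. Type 2-like cells held 11 of those pairs, with 2 higher and 9 lower of 36 measured, in the class where 1.76% of all genes were higher and 14.0% lower. Among them was Hilpda, a lipid droplet protein, lower at 99.95 and 52.4 CPM. Epas1, which encodes HIF-2α, was lower there at 687 and 455 CPM. It was also lower in B-like, NK-like, neutrophil-like and nonclassical monocyte-like cells, at 47.3 to 86.8 CPM in the IgG and 27.7 to 55.4 in the S100A4-11 library. In these 4 classes the surfactant gene Sftpc, read as free RNA of type 2-like cells, had ratios of 0.325 to 0.479. Its level there was 209 to 318 CPM in the IgG and 72.3 to 122 in the S100A4-11 library. In type 2-like cells Sftpc was 128522 and 169977 CPM. Free RNA of other classes was not read beside Epas1, and the part of free RNA in the Epas1 levels was not tested. Adm, the vasodilator adrenomedullin, was higher in B-like cells at 12.5 and 31.3 CPM and in fibroblast-like cells at 32.04 and 57.0. In pericyte or smooth muscle-like cells, Lox, Angptl4, Gbe1, Trf and Selenbp1 were lower, and Cxcr4 was higher at 47.3 and 80.3 CPM. There 1 pair was higher and 6 lower of 34 measured, where 1.66% of all genes were higher and 3.47% lower. That class pooled 2 clusters whose sizes differed between the libraries, and its Sftpc ratio was 0.226. The part of either in these levels was not tested. In T-like cells Tfrc, the transferrin receptor, was higher at 12.9 and 21.8 CPM and Trf at 21.3 and 32.1.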

How the data were processed

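Each lung library was made with the 10x Genomics 5′ kit V2, per the labels' protocols, and processed with Cell Ranger 7.1.0 against mm10, per the submitters' processing notes. The deposited matrices hold raw UMI counts per gene and cell, whole numbers with no normalization by the authors. They held 14411 barcodes and 85458143 UMIs (IgG) and 12506 barcodes and 64695542 UMIs (S100A4-11), and 266 barcodes occurred in both. Cells with under 200 genes (67 and 101) or over 15% mitochondrial UMIs (59 and 40) were removed, and so were predicted doublets, 627 (4.39%) and 615 (4.97%), called by Scrublet in Scanpy 1.11.5.

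Both libraries were clustered together on 2000 variable genes without the 32 members, 30 components, 15 neighbours (scikit-learn 1.9.0) and the Leiden method at resolution 1 (leidenalg 0.10.2), which gave 41 clusters. A cluster was named from at least 3 detected markers of a listed cell type. The limit on markers of other lineages was set after the clusters were seen, and 645 and 352 cells stayed unnamed. UMIs were summed per class and library. With 1 library per group no test was run: ratios are S100A4-11 over IgG with exact conditional binomial intervals, levels have exact Poisson intervals and shares exact Clopper-Pearson intervals. A gene was called past the fold at 1.5-fold with at least 100 UMIs in both libraries together and at least 1 in each. The ratio calculation recovered known changes in counts simulated with counting error only. Clustering, class naming, free RNA and variation between cells or libraries were not simulated. Members were given in every class where past the fold and, for most members, in their 3 highest classes. Shares of main isoforms were given for chosen classes. Aldoc, Pdk1, Slc16a1 and Egln3 were given by class only where they had enough UMIs. Other pathway genes were given only where past the fold. The members, gene lists and alternatives were chosen with earlier results of these data known, and 4 alternatives were added after the clusters were seen. One gene of the related lists, though counted, is not reported here by name.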

Additional observations from a re-analysis of the deposited data

Results flagged for a closer look

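Ndrg1 stood out because it went past 1.5-fold in opposite directions in 2 classes. The ratio of S100A4-11 over IgG was 0.415 in alveolar macrophage-like cells, from 81 and 22 UMIs, and 1.63 in T-like cells, from 55 and 102 UMIs. With 1 library per group, the difference between these ratios was not tested.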

How the results depend on the processing

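The counts of pairs past 1.5-fold, 6 higher and 3 lower, rest on genes of low counts. Higher and lower pairs numbered 20 and 20 with a minimum of 20 UMIs, 28 and 26 with 1 UMI in each library, and 0 and 0 with 500 UMIs, where 163 pairs were measured. The lower pairs numbered 9 and 7 at Leiden resolutions 0.5 and 2, 6 with the members allowed among the variable genes, 5 with every barcode kept, 10 with doublets kept, 8 with every cell weighing the same and 10 without the 5 cells of most UMIs, while the higher pairs numbered 4 to 6. TMM scaling (edgeR 4.0.16) gave 5 higher and 4 lower. With every cell weighing the same, Hk1 in type 2-like cells reversed to 1.05. Ndrg1 in both classes, Egln1 in interstitial macrophage-like cells and Pfkfb3 in type 2-like cells were past 1.5-fold in every alternative run for them, over ranges of 0.209 to 0.453, 1.58 to 1.81, 1.66 to 1.99 and 0.298 to 0.642. Hk1 in type 2-like cells ranged from 0.501 to 1.05, Hk2 there from 1.17 to 1.84 and Slc16a1 there from 1.05 to 1.86. Shares of main isoforms stayed within their counting intervals in 815 comparisons with an alternative and moved out of them in 85. Levels, each in the member's highest measured class of the IgG library, did so in 269 and 71, with 4 moving by over 1.5 times. The largest shift of a share was 22.6 percentage points, for Slc2a1 in endothelial-like cells of the IgG library with at least 500 genes per cell. The largest shift of a level was 2.22 times, for P4ha1 in nonclassical monocyte-like cells of the S100A4-11 library at Leiden resolution 0.5. The cause of these shifts was not tested. No paired analysis was possible because each group is 1 library, so no replicate could be left out either.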
